A study of Canis lupus familiaris with 10 samples.

Results

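The genes described here are 9 growth factor receptors and ligands of myeloid cells, namely the receptors FLT3, CSF1R, KIT, CSF2RB and CSF3R and the ligands FLT3LG, CSF1, IL34 and KITLG. They were chosen by name, all 9 were among the 23266 gene symbols of the table, and all 9 passed the filter on low values. Their transcripts were counted with QuantSeq 3′, which sequences the 3′ end of polyadenylated RNA, in archived blocks (FFPE, formalin-fixed and paraffin-embedded) of cutaneous histiocytoma of the dog (CCH). CCH is a benign tumor of epidermal dendritic (Langerhans) cell origin that usually regresses without therapy. The labels assign 5 tumors to group 1 of the Cockerell & Slauson staging (early CCH) and 5 to group 3 (late CCH, described as enriched in lymphocytes). These were diagnostic cases from client dogs of various breeds, not experimental animals, and the RNA came from bulk tumor trimmed of its surroundings. Ages given in the labels ran from 0.5 to 5 years in early (n = 4) and from 1.5 to 9 years in late CCH (n = 5).

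FLT3, CSF1R and KIT are receptor tyrosine kinases of the same structural class, and each is switched on when a dimeric ligand joins a pair of receptor chains. FLT3 and its ligand FLT3LG drive the formation of dendritic cells from bone marrow progenitors. CSF1R is the receptor that monocytes and macrophages need to survive, and it has 2 ligands, CSF1 and IL34. Langerhans cells of the epidermis also depend on CSF1R, there mainly through IL34 made by keratinocytes. KIT, bound by KITLG, is known for mast cells and melanocytes, CSF2RB is the signaling chain shared by the receptors for GM-CSF, IL-3 and IL-5, and CSF3R is the G-CSF receptor of neutrophils.

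The 10 libraries held between 2973125 and 4439709 reads assigned to genes, and 3 reads, taken as the limit that a count of 0 allows, equal a value of 2.36 to 3.22 after normalization. RNA quality (DV200, the percentage of RNA in longer fragments) was 64.5% to 71.2% in the early and 71.2% to 75.8% in the late samples, and the study lists RNA extraction batches that each held only 1 of the stages, so that stage, batch and RNA quality cannot be told apart. Of 12397 genes tested with limma, late CCH had 131 called as higher and 138 as lower, and with scaling to the column total 64% of the calls were higher, against 48.7% here. Libraries are numbered within a stage only to name them, and in bulk tissue fewer cells of a type and less RNA per cell cannot be told apart. QuantSeq 3′ yields a single fragment per transcript, so levels of different genes were compared without division by gene length. Other differences between genes, such as how completely the 3′ end is annotated, were not corrected for. Statements on which of 2 genes had the higher level carry this limit.

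Late CCH had less FLT3 and more CSF1, while CSF1R remained the most abundant of the 9 genes in every library. A gene was called when its adjusted p from limma (Benjamini-Yekutieli, BY, over all genes tested) was at most 0.05 and its log2 fold change (log2FC, the late mean of log2(value + 1) minus the early mean) was at least 1 in size. FLT3 and CSF1 were called, 2 of 9 genes, against 2.17% of all genes tested (1.06% higher and 1.11% lower in late CCH). With Benjamini-Hochberg (BH) in place of BY adjustment the same 2 of the 9 genes were called, against 9.04% of all genes tested. They were also the 2 of the 9 genes whose stages did not overlap, which held for 12% of all genes tested. The median log2FC was 0.78 over the 9 genes and -0.004 over all genes tested, with 7 of the 9 above 0 in limma. In edgeR and DESeq2, 5 of the 9 were above 0, with medians of 0.32 and 0.31, since KIT and CSF2RB changed sign there. Since the 9 genes were chosen with results of these data known, these shares describe them and are no test of the group.

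**Figure D1:**
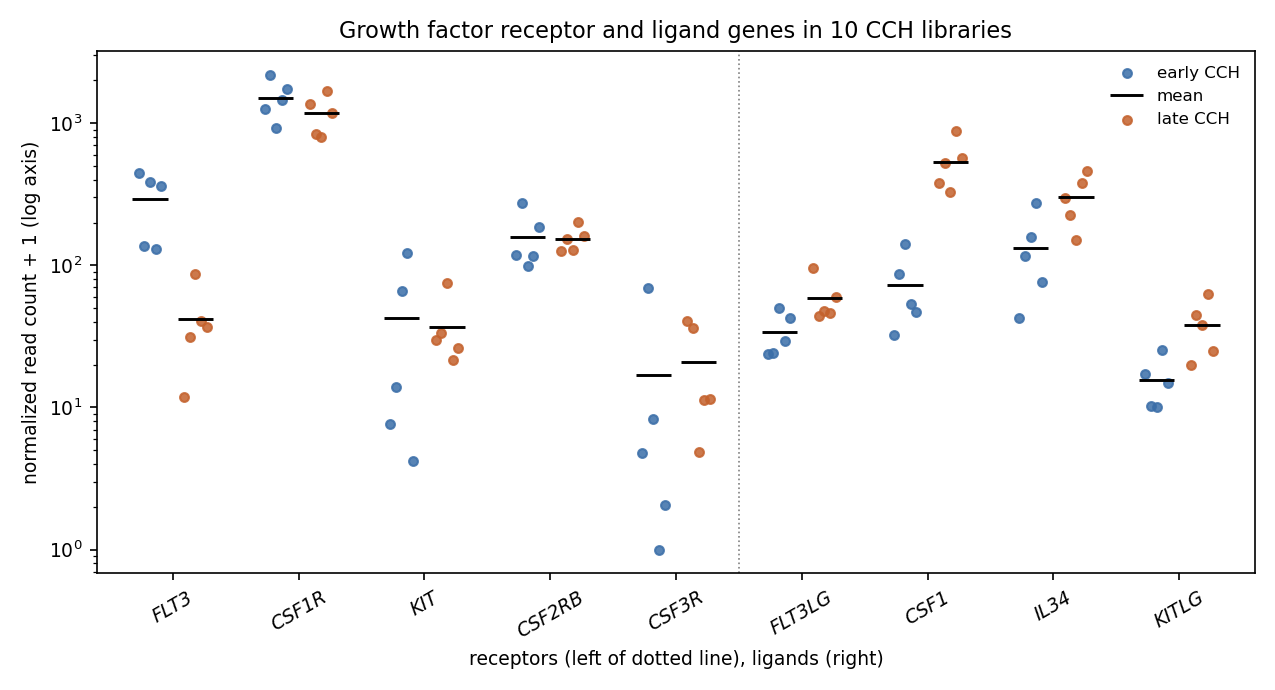
Normalized read count + 1 (log axis) of the 5 receptor and 4 ligand genes in each library, with early CCH in blue, late CCH in orange and black lines for the mean of 5 libraries. FLT3 lay lower and CSF1 higher in every late than in every early library, and the stages overlapped for the other 7 genes.

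FLT3 had normalized read counts of 447, 136, 386, 128 and 362 in early libraries 1 to 5, and of 10.9, 30.4, 86.2, 39.9 and 35.7 in late libraries 1 to 5. All late values lay below the lowest early value, and late library 1 was the lowest of all 10. The mean was 292 ± 149 in early and 40.6 ± 27.8 in late CCH (SD, n = 5 each), which is 7.19-fold lower, and it rested on 146 to 470 reads per early and 11 to 89 reads per late library. The log2FC was -2.89 ± 0.50 (SE, 95% CI -3.99 to -1.80) with an adjusted p of 0.0434. FLT3 was higher than 91% of all gene symbols in mean early level and higher than 60.8% in late level.

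The call of FLT3 was close to the threshold. It was lost without early library 1, 3 or 5 (adjusted p = 0.113, 0.0882 and 0.135) and without late library 1, 2, 4 or 5 (adjusted p = 0.0828, 0.118, 0.129 and 0.0988), with log2FC values between -2.51 and -3.23 over all 10 omissions. It was also lost with robust moderation (adjusted p = 0.0588) and in the edgeR quasi-likelihood test on the recovered reads (adjusted p = 0.0559), which called 1.43% of all genes. FLT3 stayed called in the 9 remaining alternatives. Among them were library weights (adjusted p = 0.0155) and DESeq2 (adjusted p = 3.29e-06), which called 6.53% of all genes.

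CSF1R had normalized read counts of 1248, 2198, 925, 1455 and 1732 in early and of 1366, 840, 802, 1679 and 1175 in late libraries 1 to 5. The stages overlapped widely, with 2 late libraries below every early one. The mean was 1511 ± 484 in early and 1172 ± 368 in late CCH (SD, n = 5 each), and the log2FC of -0.36 ± 0.26 (SE) was not called (adjusted p = 1). Its 95% CI, -0.92 to 0.19, reaches from a fall by close to the threshold to a small rise. With at least 828 reads in each library, CSF1R was higher than 98.8% of all symbols in early and 98.5% in late CCH.

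KIT had normalized read counts of 6.66, 13, 65.1, 121 and 3.22 in early and of 28.8, 32.3, 73.6, 20.5 and 25.2 in late libraries 1 to 5. The early libraries spanned a 37.4-fold range that enclosed all late values, the highest being early library 4. Accordingly, its log2FC of 0.70 ± 0.81 (SE, 95% CI -1.06 to 2.47) was not called, and the mean value was 41.7 ± 50.7 in early and 36.1 ± 21.4 in late CCH (SD, n = 5 each).

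CSF2RB had normalized read counts of 117, 274, 98.6, 116 and 184 in early and of 125, 153, 127, 200 and 159 in late libraries 1 to 5. All late values lay inside the early range, and the log2FC was 0.04 ± 0.27 (SE, 95% CI -0.54 to 0.63, adjusted p = 1). The means were 158 ± 72.4 in early and 153 ± 30.6 in late CCH (SD, n = 5 each). Differences of 2-fold in either direction lie outside this interval.

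CSF3R was the receptor with the fewest reads, 86 over the early and 101 over the late libraries. Its normalized read counts were 3.81, 67.9, 7.24, 0 and 1.07 in early and 39.8, 35.2, 3.87, 10.2 and 10.5 in late libraries 1 to 5. A single early library, number 2, held 73 of the 86 early reads, and in early library 4 no read was found, which allows a value of up to 2.36. The log2FC of 1.47 ± 1.03 (SE, 95% CI -0.77 to 3.71) was not called, and it was 0.80 with a pseudocount of 5, 0.85 without early library 4, 0.32 with edgeR and 0.31 with DESeq2. Neither a 4-fold rise nor an unchanged level was outside this interval.

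Among the ligands, CSF1 differed most between the stages. Its normalized read counts were 31.4, 85.6, 141, 52.8 and 46.2 in early and 379, 526, 328, 876 and 570 in late libraries 1 to 5, so that the lowest late value was more than 2-fold above the highest early value. The mean rose from 71.4 ± 43.7 to 536 ± 215 (SD, n = 5 each), a 7.5-fold increase based on 33 to 156 reads per early and 339 to 857 per late library. The log2FC was 3.00 ± 0.38 (SE, 95% CI 2.18 to 3.81) with an adjusted p of 0.0106. CSF1 stayed called whichever of the 10 libraries was omitted (adjusted p from 0.00592 to 0.0461) and in each of the 11 other alternatives, among them edgeR with an adjusted p of 0.0202.

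IL34, the other ligand of CSF1R, had normalized read counts of 41.9, 115, 156, 272 and 75.1 in early and of 294, 225, 149, 376 and 457 in late libraries 1 to 5. In 3 late libraries it exceeded every early value. Its mean was 132 ± 89.1 in early and 300 ± 122 in late CCH (SD, n = 5 each), and the log2FC of 1.35 ± 0.45 (SE, 95% CI 0.38 to 2.31) was not called (adjusted p = 0.584, unadjusted p = 0.0102).

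KITLG had normalized read counts of 16.2, 9.3, 9.05, 24.4 and 14 in early and of 18.9, 43.8, 36.8, 61.4 and 24.1 in late libraries 1 to 5. In 3 late libraries it lay above every early value, with at most 60 reads in any library. The means were 14.6 ± 6.29 and 37 ± 16.8 (SD, n = 5 each), and the log2FC of 1.26 ± 0.41 (SE, 95% CI 0.38 to 2.14) was not called (adjusted p = 0.541, unadjusted p = 0.00889).

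FLT3LG had normalized read counts of 22.8, 23.3, 48.8, 28.4 and 41.9 in early and of 94.5, 42.8, 46.5, 45 and 58.8 in late libraries 1 to 5. In 2 late libraries it exceeded every early value. Its means were 33 ± 11.7 and 57.5 ± 21.6 (SD, n = 5 each), and the log2FC of 0.78 ± 0.31 (SE, 95% CI 0.10 to 1.46) was not called (adjusted p = 1, unadjusted p = 0.0272). In all, 5 of the 9 genes had an unadjusted p of at most 0.05, as did 30.9% of all genes tested. FLT3LG lies beside RPL13A in the more recent dog assembly UU_Cfam_GSD_1.0, used here for gene order only. The ribosomal protein gene RPL13A had a mean of 22793 in early and 14463 in late CCH, so its log2FC of -0.61 had the opposite sign. Genes within 2 kilobases were also listed for CSF1R (HMGXB3), IL34 (LOC100688050 and MTSS2) and CSF3R (LOC111098957 and MRPS15). MRPS15 had a mean of 154 in early and 111 in late CCH, above that of CSF3R. Whether reads of such neighbors were counted for the 9 genes was not tested.

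The order of the genes by level was not the same in both stages. In early CCH, CSF1R was followed by FLT3, CSF2RB, IL34, CSF1, KIT, FLT3LG, CSF3R and KITLG. The range of CSF1R did not overlap with that of FLT3, whereas the ranges of all later neighbors in this order overlapped. In late CCH the order was CSF1R, CSF1, IL34, CSF2RB, FLT3LG, FLT3, KITLG, KIT and CSF3R, and only CSF2RB and FLT3LG were neighbors without overlap. Thus FLT3 stood in place 2 in early and in place 6 in late CCH, and CSF1 in places 5 and 2. In each of the 5 late libraries CSF1R exceeded CSF1 and CSF1 exceeded IL34, although the ranges over libraries overlapped.

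Partners were then compared inside each library, since the scaling of a library largely cancels in a ratio of 2 of its genes, apart from the pseudocount of 1, which weighs more on low genes. The 6 pairs consisted of each ligand with its receptor, the ligands of CSF1R with each other, and FLT3 with CSF1R. The test was an exact permutation of the stage labels, two-sided, whose smallest possible p is 0.00794, with BH adjustment over the 6 pairs. The ratios are made of the values above and are not independent of them or of each other.

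The ratio of FLT3LG to FLT3, on the log2 scale, was -2.98 ± 0.79 in early and 0.70 ± 1.42 in late CCH (SD, n = 5 each). In late libraries 1, 2, 4 and 5 the ligand had more reads than its receptor, and in each early library it had fewer. The difference of 3.68 had an exact p of 0.00794 and an adjusted p of 0.0159, with 5 of 5 late libraries above every early one.

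For CSF1 to CSF1R, the log2 ratio was -4.52 ± 1.05 in early and -1.16 ± 0.44 in late CCH (SD, n = 5 each). Per unit of CSF1R, CSF1 was between 0.026 and 0.153 in the early and between 0.278 and 0.627 in the late libraries, with a pseudocount of 1 on both genes. The difference of 3.36 had an exact p of 0.00794 and an adjusted p of 0.0159, again with 5 of 5 late libraries higher. For IL34 to CSF1R the difference was smaller, 1.71, with 4 of 5 late libraries above every early one (exact p = 0.0159, adjusted p = 0.0238).

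CSF1 and IL34 exchanged places as the more abundant ligand. CSF1 made up 42.9%, 42.6%, 47.4%, 16.3% and 38.1% of the sum of both in early libraries 1 to 5, and 56.3%, 70.1%, 68.8%, 70% and 55.5% in late libraries 1 to 5. The sum itself was 204 ± 109 in early and 836 ± 305 in late CCH (SD, n = 5 each), so both its size and its make-up differed. Single shares were less certain at low depth, with a 95% Wilson interval of 32.4% to 54% in early library 1 and of 67.3% to 72.5% in late library 4, which covers counting error only. The log2 ratio of CSF1 to IL34 was -0.80 ± 0.88 in early and 0.85 ± 0.47 in late CCH (SD, n = 5 each, difference 1.65, exact p = 0.00794, adjusted p = 0.0159).

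For FLT3 to CSF1R, early CCH had a log2 ratio of -2.50 ± 1.21 and late CCH one of -5.03 ± 1.30 (SD, n = 5 each). The difference of -2.53 had an exact p of 0.0238 and an adjusted p of 0.0286, with 4 of 5 late libraries below every early one and late library 3 inside the early range. For KITLG to KIT the early libraries alone spanned from -2.72 to 1.83. The difference of 0.55 for this pair had an exact p of 0.579 and an adjusted p of 0.579. Without late library 1, 2, 4 or 5, the adjusted p rose to between 0.0571 and 0.0667 for IL34 to CSF1R and to between 0.0571 and 0.0595 for FLT3 to CSF1R.

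**Figure D2:**
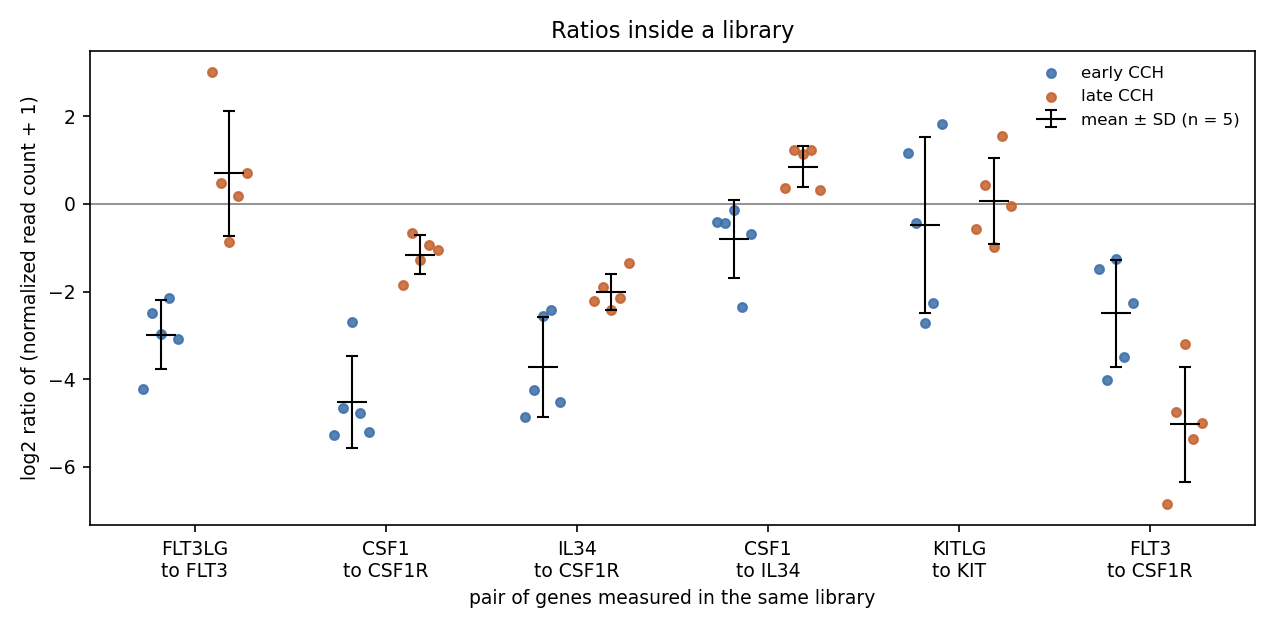
Log2 ratio of the normalized read counts + 1 of 6 pairs of genes, each point being a library (early CCH in blue, late CCH in orange), with the mean and SD of 5 libraries in black. The stages did not overlap for FLT3LG to FLT3, CSF1 to CSF1R and CSF1 to IL34, and they overlapped for the other pairs.

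Further genes of these pathways were examined in 5 lists with 59 genes, of which 46 passed the filter. Of these, 2 were called (4.35%, against 2.17% of all genes tested), 1 higher and 1 lower. Both belong to the 27 tested genes of receptor-proximal signaling, whose median log2FC was -0.08. Of the 27, 10 had an unadjusted p of at most 0.05 in limma, as did 30.9% of all genes tested. The stages did not overlap for 6 of the 27, against 12% of all genes tested. edgeR called 1 and DESeq2 4 of the 27, against 1.43% and 6.53% of all genes tested. SH2B3, an adaptor that restrains KIT, FLT3 and cytokine receptor signaling, fell from 327 ± 51.5 to 127 ± 43.1 (SD, n = 5 each, log2FC -1.40 ± 0.22 SE, adjusted p = 0.0288), and its late values of 83.5 to 196 lay below the early values of 248 to 391. PIK3CD, the leukocyte subunit of phosphoinositide 3-kinase, rose from 312 ± 49.8 to 641 ± 148 (log2FC 1.02 ± 0.18 SE, adjusted p = 0.0436). Without early library 1 or 5 or late library 1, 2, 4 or 5, none of the 46 genes was called. The other genes at the ends of this list were SLA2 with a log2FC of 2.15, SLA with 1.08 and TYROBP with -0.82, none of them called (adjusted p = 0.175, 0.213 and 0.0805). SLA and SLA2 are adaptors that dampen receptor signaling in myeloid and T cells, and TYROBP is the adaptor DAP12 of myeloid receptors.

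In the GM-CSF and G-CSF family, CSF2RA, the chain that gives the GM-CSF receptor its ligand specificity and pairs with CSF2RB, was the only tested gene. It had a mean of 70 ± 29.5 in early and 155 ± 40.5 in late CCH (SD, n = 5 each) and was not called by limma (log2FC 1.20 ± 0.30 SE, unadjusted p at most 0.05, adjusted p = 0.202) or edgeR, but by DESeq2, which called 6.53% of all genes. The ligand genes CSF2, CSF3 and IL5 and the receptor genes IL3RA and IL5RA stayed under the filter. CSF2 had reads in 1 library, early library 5, where its value of 3.22 corresponds to 3 reads. CSF3, which encodes the ligand of CSF3R, was at 20.5 in early library 2, the library with the highest CSF3R, and at most 2.98 in the others.

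Of 13 myeloid transcription factors tested, limma and edgeR called none and DESeq2 called 2, while 8 had an unadjusted p of at most 0.05 in limma. Among all genes tested, DESeq2 called 6.53%, and 30.9% had an unadjusted p of at most 0.05 in limma. The highest log2FC values were those of TCF4 (1.64, adjusted p = 0.0905) and RUNX1 (1.38, adjusted p = 0.567), and the lowest those of BATF3 (-1.06, adjusted p = 0.373) and KLF4 (-1.001, adjusted p = 1). BATF3 is a factor of dendritic cell development, and TCF4 directs plasmacytoid dendritic cells but is also active in other cells. Of the 3 related kinases and IL34 partners tested, limma, edgeR and DESeq2 called none, and none had an unadjusted p of at most 0.05. PDGFRB, the kinase gene beside CSF1R, had a log2FC of 0.30, SDC1 of -0.04 and PDGFRA, the kinase gene beside KIT, of -0.36. ADAM17 and ADAM10, proteases that shed membrane-bound growth factors, had log2FC values of 0.77 and -0.49, neither called by any of these tools, with 1 of the 2 at an unadjusted p of at most 0.05.

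**Figure D3:**
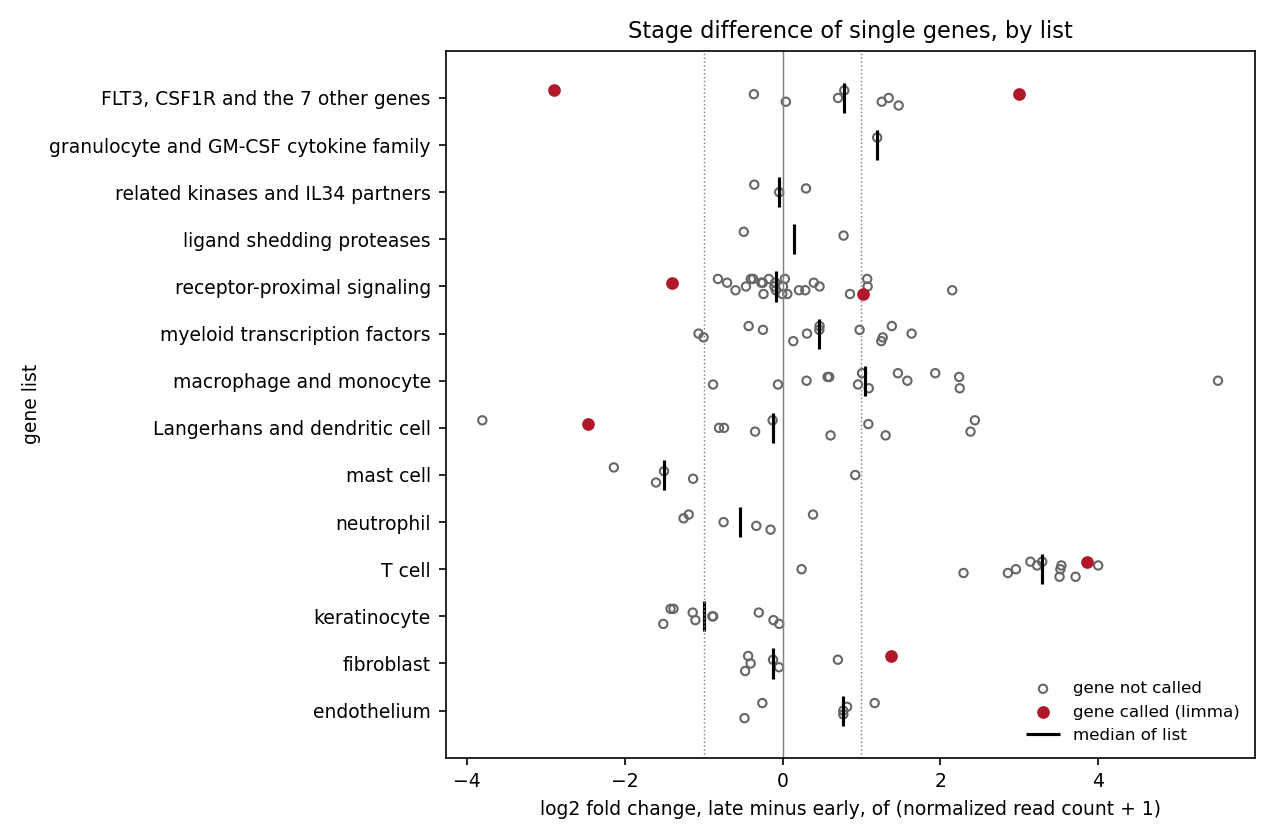
Log2 fold change (late minus early) of each tested gene in the group of 9 genes, the 5 pathway lists and 8 marker lists, with called genes in red and the median of each list as a black bar. FLT3 at -2.89 and CSF1 at 3.00 lie far from the other 7 genes of their group, and the T-cell list has the highest median (3.29), while the single highest gene is the macrophage marker CD5L (5.52). CD5L had no reads in early libraries 1 and 4.

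Markers of the cell types that could carry these genes were measured in the same libraries, and their part in the differences above was not tested. Of 93 marker genes in 9 lists, 72 were tested and 3 called (4.17%, against 2.17% of all genes tested). Those called were CD6 and THY1, higher in late CCH, and FCER1A, lower. Of all genes tested, 12% did not overlap between the stages and 30.9% had an unadjusted p of at most 0.05 in limma. edgeR called 1.43% of all genes tested and DESeq2 6.53%. Without late library 1, 2, 4 or 5, 0 of the marker genes were called by limma, and without early library 5 or 3 the number was 1 or 5. The 13 T-cell markers were all above 0 in log2FC, with a median of 3.29, and 1 was called (CD6, log2FC 3.85). Of the 13, 12 had an unadjusted p of at most 0.05, 10 did not overlap between the stages, and edgeR called 1 and DESeq2 7. Their summed normalized read count was 362 to 2943 in early and 4520 to 6981 in late CCH, so it did not overlap between the stages, as was the case for CSF1 and FLT3. Among the early libraries, library 3 had the highest T-cell sum (2943), CSF1 (141) and FLT3LG (48.8). Library 4 had the next highest sum (2354) with CSF1 at 52.8 and FLT3LG at 28.4. CSF1 was higher in library 2 (85.6, sum 1113) and FLT3LG in library 5 (41.9, sum 604). The other early libraries with smaller sums had less of the gene than library 4.

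The 14 macrophage and monocyte markers had a median log2FC of 1.05, with 12 above 0. None was called by limma or edgeR and 1 by DESeq2, and 8 had an unadjusted p of at most 0.05. Their sum was 1766 to 10837 in early and 6910 to 12129 in late CCH, with 2 late libraries above every early one, beside the log2FC of -0.36 of CSF1R. CD5L, a secreted macrophage protein, and MSR1, a scavenger receptor, had the highest log2FC (5.52 and 2.25, adjusted p = 0.0917 and 0.177), and LYVE1 and MRC1 the lowest (-0.06 and -0.88). CD5L had a mean of 33.1 ± 40.1 in early and 523 ± 240 in late CCH (SD, n = 5 each). It had no reads in early libraries 1 and 4, so its log2FC of 5.52 ± 1.17 (SE) depends on the pseudocount of 1. In early library 2, which had the highest CSF1R among all 10 libraries, the macrophage sum was also the highest of the early libraries. Early library 4, however, had the lowest sum (1766) with CSF1R at 1455, and late library 1 had the highest sum of all with CSF1R at 1366.

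Of the 11 Langerhans and dendritic cell markers tested, 6 were below and 5 above 0, with a median log2FC of -0.13. An unadjusted p of at most 0.05 was found for 6 of the 11 in limma, and edgeR called 1 and DESeq2 3. The stages did not overlap for 4 of them, namely FCER1A, CD1A8 and CD86, lower in late CCH, and CCR7, higher. FCER1A, a chain of the high-affinity IgE receptor carried by dendritic cells and mast cells, fell from 115 ± 75.1 to 17.5 ± 6.08 (SD, n = 5 each, log2FC -2.47 ± 0.42 SE, adjusted p = 0.0401). CD1A8, a lipid antigen presenting molecule, had values of 42.8 to 316 in early and 0 to 35.8 in late CCH and was not called (log2FC -3.80 ± 0.92 SE, adjusted p = 0.171). At the other end were XCR1, the chemokine receptor of cross-presenting dendritic cells, and CCR7, which guides mature dendritic cells and lymphocytes to lymph nodes (log2FC 2.44 and 2.38, adjusted p = 0.683 and 0.252). The summed level of the list was 2606 to 4903 in early and 2346 to 3265 in late CCH, with CD86 making up 53.2% of it, and 3 late sums lay below every early one, beside the fall of FLT3. CD86 was at 1829 to 2582 in early and at 1028 to 1405 in late CCH and was not called (log2FC -0.81). CD207, which encodes langerin, as well as CLEC9A and CLEC10A, were not analysed here.

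For KIT, the melanocyte markers were near 0, with sums of 2.71 to 6.51 in early and 2.05 to 14.3 in late CCH and none of the 8 genes measured above the filter. The sum of the mast cell markers was 194 to 970 in early and 63.6 to 222 in late CCH, with 69.8% of it from HPGDS, a prostaglandin synthase. Early library 4 had the highest KIT and the highest mast cell sum. The tested markers peaked in different libraries. HPGDS (862) and RAB27B (55.9) were highest in early library 4, MS4A2 (40.9) in early library 1 and CMA1 (83.8) in late library 4. The protease gene CPA3, more restricted to mast cells, was highest in early library 2 (69.8), where KIT was at 13, and at 18.1 in early library 4. None of the 5 mast cell markers tested was called by limma, edgeR or DESeq2, 2 of them had an unadjusted p of at most 0.05, and their log2FC ran from -2.14 for CPA3 to 0.92 for CMA1.

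For CSF3R, the 6 neutrophil markers tested had a median log2FC of -0.54, and none was called by limma, edgeR or DESeq2 or had an unadjusted p of at most 0.05. The neutrophil sum ran from 278 to 9570 in early and from 156 to 9097 in late CCH, with S100A8, a gene that keratinocytes can also express, as its most abundant member. Early library 2 had the highest sum of the early libraries together with the highest CSF3R, whereas early library 1 had a sum of 8185 with a CSF3R value of 3.81.

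For IL34 and KITLG, which are both made by keratinocytes, the 10 keratinocyte markers were all below 0, with a median log2FC of -0.997. None was called by limma, edgeR or DESeq2, and 1 had an unadjusted p of at most 0.05. Their sum was 1006 to 17273 in early and 733 to 9044 in late CCH. Its highest value was in early library 4, which also had the highest early values of IL34 (272) and KITLG (24.4). In late libraries 1 to 5 the sums were 1099, 9044, 733, 2082 and 7063. IL34 was at 294, 225, 149, 376 and 457 there, and KITLG at 18.9, 43.8, 36.8, 61.4 and 24.1. The part of keratinocytes in these levels was not tested. The fibroblast and endothelium lists had median log2FC values of -0.12 and 0.77. Of the 7 fibroblast markers tested only THY1, which in dogs also marks T cells, was called (log2FC 1.38 ± 0.21 SE, adjusted p = 0.0226). Of the 6 endothelium markers, limma, edgeR and DESeq2 called none, and 3 had an unadjusted p of at most 0.05.

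**Figure D4:**
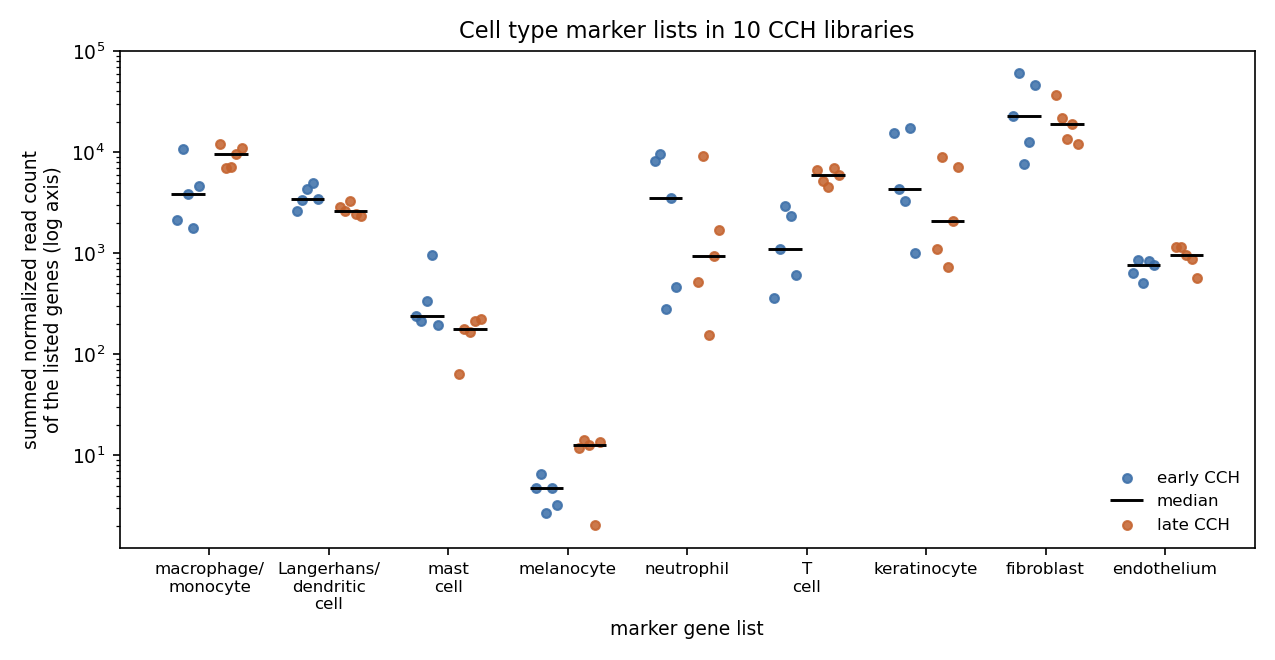
Summed normalized read count (log axis) of 9 marker gene lists in each library, with early CCH in blue, late CCH in orange and black lines for the median of 5 libraries. The T-cell sums of 4520 to 6981 in late CCH lay above all early sums, and the other lists overlapped between the stages.

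Finally, genes whose deviations from the stage mean ran most alike with FLT3, CSF1R or CSF1 were listed. The measure was Pearson's r of log2(value + 1) after the stage mean had been subtracted, over 10 libraries and 11117 named genes, and it is given as a description. Libraries share depth and tissue make-up, and no test was made. For FLT3 these genes were FARS2 (0.95), PTPN6 (0.94), ABCB10 (0.94), FKBP2 (0.93) and NLN (0.93), with Spearman's coefficients between 0.82 and 0.96. PTPN6, the phosphatase SHP-1, was also on the receptor-proximal list, where it had a log2FC of -0.46 and was not called. For CSF1R they were PDE5A (0.96), MAP1LC3B (0.93), LASP1 (0.93), CORO7 (0.92) and DCLK1 (0.92). For CSF1 they were IFIH1 (0.92), C1GALT1 (0.91), NUP210 (0.91), AMPH (0.91) and ELL2 (0.90). None of these 15 genes was called between the stages. Without the 2 libraries furthest from the median, r lay between 0.85 and 0.94 for these 15 genes. They were picked for the highest r among 11117 genes over the same libraries, so high values follow in part from that choice. The range is therefore no separate check of the likeness. Among the 9 genes themselves, CSF2RB was the closest to CSF1R with an r of 0.77, ranked 123, and IL34 the closest to CSF1 with 0.60, ranked 435, while the r of FLT3 and CSF1R was -0.53. Without the 2 libraries furthest from the median, the r of CSF1R was 0.57 with CSF2RB and that of FLT3 with CSF1R was -0.37. For CSF1 the order turned, with an r of 0.71 for CSF2RB and 0.61 for IL34.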

How the data were processed

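QuantSeq 3′ libraries of 10 FFPE tumors (5 early, 5 late CCH) were analysed. According to the study's methods and the submitters' processing notes, the authors trimmed reads with cutadapt, aligned them with STAR to CanFam3.1, counted them with 2 rounds of featureCounts (the second on genes extended at the 3′ end) and, as stated there, split multi-mapped reads evenly; versions are not given in the sources used here. The deposited values are a normalized signal, the read count divided by a size factor per library. In the 10 columns used, 100% of 166096 values above 0 were whole multiples of the value of 1 read (tolerance 0.01 reads), which gave the recovered reads. Evenly split multi-mapped reads would leave fractions of a read, which these columns do not show. How such reads entered the deposited values was not tested. The other 11 columns match no sample and were not used.

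Genes that reached 10 in 5 or more libraries entered limma 3.58.1 (R 4.3.3, mean-variance trend, log2(value + 1), no covariates, BY adjustment as in the study). Column names show the stage and a number that resembles sample identifiers in the study's supplement but is in none of the labels, so columns were assigned to a stage and not to a sample. Alternatives used edgeR 4.0.16, DESeq2 1.42.0, other scalings, filters and pseudocounts, and the omission of each library, and the tests were checked on simulated counts. Ratios inside a library were tested by exact permutation. Breed, age and sex in the labels differ between samples, but no animal number is given. Members, lists and pairs were chosen with earlier results of these data known. Named genes were the 9 members, the called genes and the 2 highest and 2 lowest log2FC of each list, and the 5 genes most alike in pattern, and single markers were also named beside the library they bear on after their values had been seen.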

Additional observations from a re-analysis of the deposited data

Results flagged for a closer look

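Libraries far from the other 4 of their stage were sought for the 9 genes, the 6 ratios and the 9 marker sums by Dixon's test, which sets the gap of an extreme library against the whole spread of its stage. Of 48 sets of 5 libraries, 7 had a relative gap over 0.71, the 95% limit, while about 2.4 would do so by chance if the sets were independent and normally distributed. The gene values and sums were not log-transformed and the ratios reuse the same genes, so these 2 numbers cannot be compared strictly. KIT was at 73.6 in late library 3 and 32.3 in the next late library (relative gap 0.776). CSF3R was at 67.9 in early library 2 and 7.24 in the next (0.893). The log2 ratio of CSF1 to CSF1R was -2.70 in early library 3 and -4.67 in the next (0.765), and that of CSF1 to IL34 was -2.34 in early library 4 and -0.69 in the next (0.753). The mast cell sum was 970 in early library 4 and 336 in the next (0.818), the melanocyte sum 2.05 in late library 4 and 11.9 in the next (0.809), and the neutrophil sum 9097 in late library 2 and 1714 in the next (0.826). The causes were not tested.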

How the results depend on the processing

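No paired analysis was possible because no replicate number stands in the columns and the labels give no animal number. CSF1 and the ratios of CSF1 to CSF1R, CSF1 to IL34 and FLT3LG to FLT3 kept direction and call under each alternative run. FLT3 kept its direction but lost its call with robust moderation (log2FC -2.89) and edgeR (-2.82), leaving 1 of the 9 genes called. Leaving out 1 library moved its log2FC between -3.23 and -2.51 and left 1 or 2 genes called. The log2FC of KIT, not called, reversed with edgeR (-0.19) and DESeq2 (-0.21), and that of CSF2RB with edgeR (-0.0295) and DESeq2 (-0.0414). Without single libraries, CSF2RB ran from -0.10 to 0.27, KIT from 0.13 to 1.34, CSF3R from 0.85 to 1.89, KITLG to KIT from -0.0041 to 1.13, IL34 to CSF1R from 1.42 to 2.03 and FLT3 to CSF1R from -2.99 to -2.08. Of all genes, 418 were called with library weights, 1121 with BH, 177 with edgeR, 810 with DESeq2 and 49 to 260 without 1 library. Of the pathway lists, 1 was called without a filter and with edgeR, 9 with BH, 7 with DESeq2 and 0 to 2 without 1 library. Of the marker lists, 6 were called with a pseudocount of 5, 22 with BH, 12 with DESeq2 and 0 to 5 without 1 library. The causes were not tested, except that BH is less strict than BY by construction. CSF3R could not be fitted in 5 of the 10 omissions, in which it fell under the filter, and KIT, CSF3R, FLT3LG and KITLG fell under a mean of 50. CSF3R had 86 early and KITLG 81 early reads in all, which limits their precision.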
